A study of Mus musculus with 12 samples.

Results

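The genes described here encode components of the complement system: C1qa, C1qb, C1qc, C3, C4b, C6, Cfb and Cfp. They were taken by name, with earlier results of these data known. All 8 were found among the 38887 gene identifiers of the deposited count table. The RNA came from mouse spleen cells carrying Ly6G, a surface protein of neutrophils, which the labels call PMN-MDSC (polymorphonuclear myeloid-derived suppressor cells). Polyadenylated RNA was sequenced at 4 ages: 2 days (2d), 7 days (7d), 14 days (14d) and 6 weeks (6w). No genotype, strain or treatment is given for any age, and the 12 libraries, 3 per age, held 34495767 to 38795913 counts each. The series asks what controls a passing suppressive activity of neutrophils in newborn mice.

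Complement is a set of plasma and cell-surface proteins that mark particles for uptake and can puncture membranes. C1q, built from the chains of C1qa, C1qb and C1qc, recognises bound antibody and dying cells and starts the classical pathway, while factor B and properdin act in the alternative pathway. Both paths meet at C3, whose cleavage coats the particle, and end in the membrane attack complex, of which C6 is a part. The liver makes most circulating complement, but macrophages are a known source of C1q, and neutrophils store properdin in their granules.

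Libraries within an age differed in a few respects that bear on these genes. Normalization factors were lowest in replicate 2 at 2d, at 0.828, and in replicate 1 at 14d, at 0.918, and ran from 0.944 to 1.1 in the others. The neutrophil list, which includes Ly6g and S100a8, summed to 49150.0 to 76430.0 CPM (counts scaled to a fixed normalized library size) over all 12 libraries, so the labelled cell type showed its markers throughout. A list of 14 macrophage markers summed to 664 to 981 CPM at 2d, 2052 to 2215 CPM at 7d, 853.5 to 1300.0 CPM at 14d and 3275 to 3532 CPM at 6w, with no marker at 0. A list of 5 hepatocyte markers stayed at or under 1.91 CPM in every library. Counts of 4 Y-linked genes summed to 3051 to 3299 at 2d and 1816 to 4010 at 7d, but to 0 to 1 at 14d and 6w, while Xist stood at 158.5 to 508 CPM in all 12. In comparisons across the step from 7d to 14d, the sex of the donors and their age therefore cannot be told apart. Each 2d and 7d library held both Y-linked counts, made by male cells, and Xist, made by female cells. The 14d and 6w libraries held Xist with at most 1 Y-linked count. Whether each library is its own mouse or a pool of mice is not stated and was not tested. The p-values here reflect only how far libraries of the same age spread, which may be technical. That spread was estimated in 1 model over all 12 libraries, so libraries of ages not compared also bear on it. In RNA from a mixed cell pellet, fewer cells of a type and less RNA per cell cannot be told apart.

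All 8 component genes were higher at 6w than at 2d by edgeR's quasi-likelihood test with Benjamini-Hochberg adjustment at 0.05. The background of this comparison was 19.7% of the 15494 genes tested called higher and 40.4% called either way. The median log2 fold change of the 8 was 2.62, and that of all genes tested was -0.04. At 6w against 7d, 7 were higher and 1, C3, was lower, where 26.6% of all genes were higher and 24.5% lower (51% either way). At 6w against 14d, 7 were higher and C3 was not called, against a background of 9.26% higher (18.9% either way). The younger ages gave mixed results. At 7d against 2d, 5 of the 8 were higher with a background of 22.9% (48.7% either way). At 14d against 7d, 4 were lower and 2 higher, with backgrounds of 21.9% lower and 24% higher (45.9% either way). At 14d against 2d only C3 and C6 were called, both higher, with a background of 12.8% (25.1% either way). In the joint test of all 4 ages each of the 8 was called, as were 69.2% of all genes, so that count is little above its background.

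**Figure D1:**
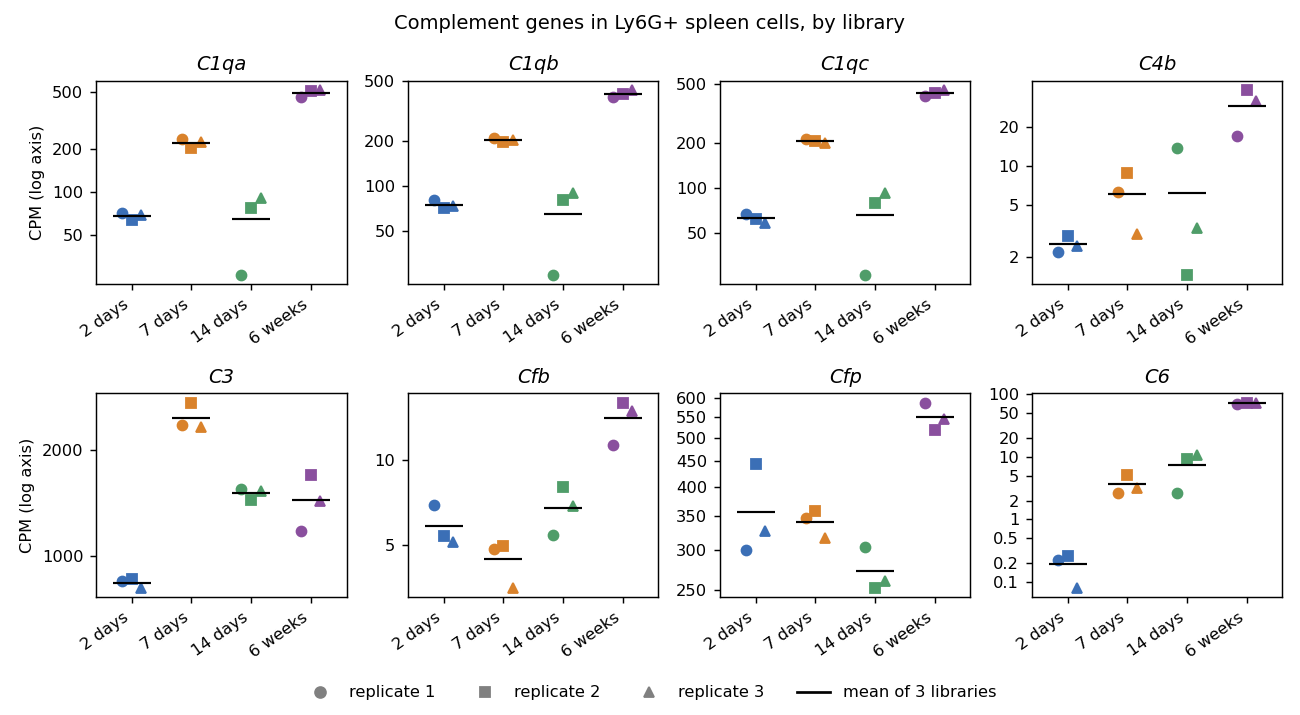
Level of each complement component gene in CPM (log axis, a scale of its own per gene) in the 3 libraries of each age, with ages from 2d to 6w along the horizontal axis; points are libraries, with a shape per replicate, and lines are the means. The C1q genes are lowest at 2d and 14d and highest at 6w, with 14d replicate 1 below the other 14d libraries, while C3 is highest at 7d. The mean of C6 rises at each age, with libraries at 70.2 to 72.8 CPM at 6w, but its 7d and 14d libraries overlap.

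The 3 C1q genes lie side by side on chromosome 4 (build mm10, also called GRCm38, GENCODE M21 annotation), all on the minus strand. C1qb spans 136880129 to 136886187, C1qc 136889804 to 136893065 and C1qa 136895917 to 136898803, so the whole cluster covers 18675 bases. The bases just upstream of C1qb and C1qc are printed because these neighbours were called in the same direction in 5 of the 6 pairs of ages, neither being called at 14d against 2d. They are RefSeq promoter sequence (GRCm38.p6, minus strand, 5′ to 3′) at chr4:136886201-136886450 for C1qb and chr4:136893066-136893164 for C1qc. Capitals mark a PU.1-type core (GAGGAA or its complement TTCCTC) and a MAF half-site (TGCTGA or TCAGCA), PU.1 and MAF being transcription factors of myeloid cells and macrophages.
C1qb: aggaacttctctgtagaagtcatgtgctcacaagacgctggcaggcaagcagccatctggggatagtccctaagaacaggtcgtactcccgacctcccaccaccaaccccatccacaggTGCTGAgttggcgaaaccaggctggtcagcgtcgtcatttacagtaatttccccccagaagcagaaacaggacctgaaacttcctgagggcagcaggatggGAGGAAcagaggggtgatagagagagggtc
C1qc: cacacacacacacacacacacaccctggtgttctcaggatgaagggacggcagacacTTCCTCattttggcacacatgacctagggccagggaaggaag
Both windows held 1 PU.1-type core, and the C1qb window also held 1 MAF half-site. Among 32851 RefSeq promoters, 23.3% held the PU.1-type letters and 16.1% the MAF letters in 250 bases. In 99 bases, the length available for C1qc, 9.7% and 6.9% held them. Those 99 bases ended at each RefSeq start, while the C1qc window ended at its GENCODE start, farther upstream. Such matches of letters say nothing of binding.

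C1qa, the A chain of C1q, stood at 71.1, 64.2 and 69.4 CPM at 2d, at 232.9, 203.6 and 222.5 CPM at 7d, at 26.2, 76.9 and 91.1 CPM at 14d and at 455, 504 and 511 CPM at 6w. All 6w libraries lay above every younger one, and all 7d libraries lay above those of 2d and 14d. The 14d libraries spread on both sides of the 2d values, with replicate 1 far below its fellows. C1qb, the B chain, stood at 80.5, 71.8 and 74.4 CPM at 2d, at 211, 196 and 202 CPM at 7d, at 25.6, 81.1 and 90.8 CPM at 14d and at 390, 412 and 435 CPM at 6w. C1qc, the C chain, stood at 67.4, 62.6 and 58.5 CPM at 2d, at 214, 209 and 200.5 CPM at 7d, at 26.2, 79.9 and 92.5 CPM at 14d and at 415.5, 434 and 453.5 CPM at 6w. Both followed the same order of ages as C1qa, apart from the 2d and 14d means, whose difference was not called for any of the 3.

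Against 2d, the 6w level of C1qa was higher by 2.84 on the log2 scale (SE 0.33, adjusted p = 3.59e-05), that of C1qb by 2.45 (SE 0.34, adjusted p = 0.000124) and that of C1qc by 2.79 (SE 0.34, adjusted p = 4.52e-05). The 7d level already exceeded that of 2d, by 1.69 for C1qa (adjusted p = 0.00102), 1.43 for C1qb (adjusted p = 0.00332) and 1.73 for C1qc (adjusted p = 0.000967). At 14d the genes fell by 1.76, 1.62 and 1.65 against 7d, in the order A, B, C (adjusted p = 0.00088, 0.00171 and 0.00143). The 6w level then stood above that of 14d by 2.92, 2.65 and 2.71 (adjusted p = 0.000163, 0.00032 and 0.00027). The path over the 4 ages was thus not a steady climb: higher at 7d, lower at 14d, highest at 6w.

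The step at 6w against 7d was the smallest of these and the least firm. It was 1.16 for C1qa (adjusted p = 0.00858), 1.02 for C1qb (adjusted p = 0.0182) and 1.06 for C1qc (adjusted p = 0.0142). Without 7d replicate 1, 2 or 3 in turn the adjusted p of C1qb was 0.0522, 0.0546 and 0.0604, and without 7d replicate 3 that of C1qc was 0.0539. At 14d against 2d the log2 differences were -0.08, -0.20 and 0.07 for the A, B and C chains, and none was called. Without 14d replicate 1, C1qc was higher at 14d than at 2d by 0.46 (adjusted p = 0.0129).

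The proportions of the chains varied far less than their levels, though that of C1qb to C1qa differed between ages. The ratio of C1qc to C1qa in CPM ran from 0.843 to 1.04 in the 12 libraries, including 14d replicate 1, where all 3 chains were low together. The ratio of C1qb to C1qa averaged 1.11 ± 0.0321 at 2d, 0.925 ± 0.0311 at 7d, 1.01 ± 0.0419 at 14d and 0.843 ± 0.0217 at 6w (SD, n = 3 each), and the 6w libraries lay below all others. Over the 12 libraries the log2 levels of C1qa correlated with those of C1qb at Pearson's r 0.997 and with those of C1qc at 0.998. With C6, C4b, Cfp, Cfb and C3 the coefficients of C1qa were 0.744, 0.621, 0.71, 0.559 and 0.393. All 12 libraries share their ages, so these coefficients describe common movement over 4 ages.

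The genes whose log2 levels ran closest to each chain were sought among 9610 that could be compared. For C1qa they were Pald1 (r 0.987), the lysosomal protease legumain Lgmn (0.986) and the cathepsin Ctsc (0.984). For C1qb they were Scamp5 (0.988), Fblim1 (0.985) and Lgmn (0.983), and for C1qc Ctsc (0.990), Lgmn (0.990) and Sh3bgrl2 (0.986).

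Macrophage markers moved with C1q in most pairs of ages, and those of some other cell types did so in part. Of 14 macrophage markers, 13 were higher at 6w than at 2d (19.7% of all genes), 13 higher at 7d than at 2d (22.9% of all genes) and 13 higher at 6w than at 14d (9.26% of all genes). At 14d against 7d 11 were lower (21.9% of all genes), and at 6w against 7d 7 were higher and 1 lower (26.6% and 24.5% of all genes). At 14d against 2d, where no C1q gene was called, 8 of the 14 markers were higher and 0 lower (12.8% of all genes higher). The list of B and plasma cell markers summed to 187 to 248 CPM at 2d, 398 to 451 CPM at 7d, 113 to 304 CPM at 14d and 383 to 439 CPM at 6w. Of its 5 markers, 5 were higher at 7d than at 2d (22.9% of all genes). The T and NK cell list summed to 8.85 to 11.03 CPM at 2d, 36.2 to 49.5 CPM at 7d, 15.0 to 40.0 CPM at 14d and 45.5 to 54.5 CPM at 6w, and 4 of its 5 markers were higher at 7d than at 2d. At 6w against 7d, where all 3 C1q genes were higher, each of these lists had 1 marker higher and 1 lower (26.6% and 24.5% of all genes). At 14d against 2d, 1 B and plasma cell marker and 4 T and NK cell markers were higher (12.8% of all genes). In 14d replicate 1 both lists were at the lowest sum of that age, as C1q was. Of 8 monocyte markers, 4 were higher and 1 lower at 6w against 2d, and 5 higher and 0 lower at 6w against 7d. Of 6 dendritic cell markers, 5 were higher and 0 lower at 6w against 2d, and 4 higher and 1 lower at 6w against 7d. At 14d against 7d, where all 3 C1q genes were lower, 4 monocyte and 5 dendritic cell markers were higher and 0 lower (24% of all genes higher). Vcam1, an adhesion molecule carried by red pulp macrophages, averaged 54.1 ± 3.25 CPM at 2d, 523 ± 18.1 CPM at 7d, 169 ± 94.4 CPM at 14d and 661 ± 14.5 CPM at 6w (SD, n = 3 each). Cd5l, a macrophage product that binds lipids and pathogens, averaged 4.95 ± 0.312, 53.6 ± 1.12, 34.2 ± 14.6 and 140 ± 6.76 CPM at 2d, 7d, 14d and 6w. Adgre1, which encodes F4/80, averaged 36.7 ± 8.08, 163 ± 4.43, 97.6 ± 13.3 and 227 ± 17.6 CPM at the same ages. Slc40a1, the iron exporter ferroportin, differed from these: it stood at 391 ± 165, 409 ± 44.4 and 403 ± 37.5 CPM at the 3 younger ages and 953 ± 85.5 CPM at 6w. In 14d replicate 1 Vcam1 was also low, at 61.5 CPM against 209.6 and 236.8 CPM in the other 14d libraries, but Slc40a1 was not, at 446 CPM against 376 and 388 CPM.

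The summed C1q level was 219, 199 and 202 CPM at 2d, 658, 608 and 625 CPM at 7d, 78.0, 238 and 274 CPM at 14d and 1261, 1350.0 and 1399 CPM at 6w. Divided by Axl, a receptor by which macrophages take up dying cells, this sum gave 4.76, 5.58 and 5.15 at 2d, 2.75, 2.43 and 2.66 at 7d, 2.12, 2.21 and 2.18 at 14d and 2.58, 2.60 and 2.52 at 6w. The low library of 14d, replicate 1, did not stand apart in this ratio, and the 3 later ages lay within 2.12 to 2.75. Axl was chosen after its values were seen. Axl was not the marker with the steadiest ratio, its highest age mean being 2.38 times its lowest. That figure was 1.65 for Spic, 1.85 for Maf and 2.06 for Siglec1, and from 2.6 for Cd163 to 8.29 for Marco among the rest. Divided by Vcam1 the C1q sum ran from 3.54 to 4.02 at 2d, 1.15 to 1.30 at 7d, 1.14 to 1.27 at 14d and 1.87 to 2.11 at 6w. Divided by the sum of all 14 markers it ran from 0.202 to 0.330 at 2d, 0.275 to 0.321 at 7d, 0.0913 to 0.211 at 14d and 0.365 to 0.412 at 6w. Slc40a1 weighed heavily in that sum, with 446 of 853.5 CPM in 14d replicate 1 and 571.5 of 981 CPM in 2d replicate 2. Divided by Cd5l the C1q sum ran from 37.5 to 45.4 at 2d and stayed at or under 12.3 later. For 6 of the 14 markers, Cd5l, Vcam1, Mertk and Axl among them, the 2d libraries had a higher ratio than any later library. For 4 others, Hmox1, Siglec1, Marco and Maf, it was the 6w libraries that lay above all the rest, so the ratio depends on the marker taken. The part of macrophage, monocyte, dendritic cell, B cell or T cell RNA in the C1q levels was not tested.

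**Figure D2:**
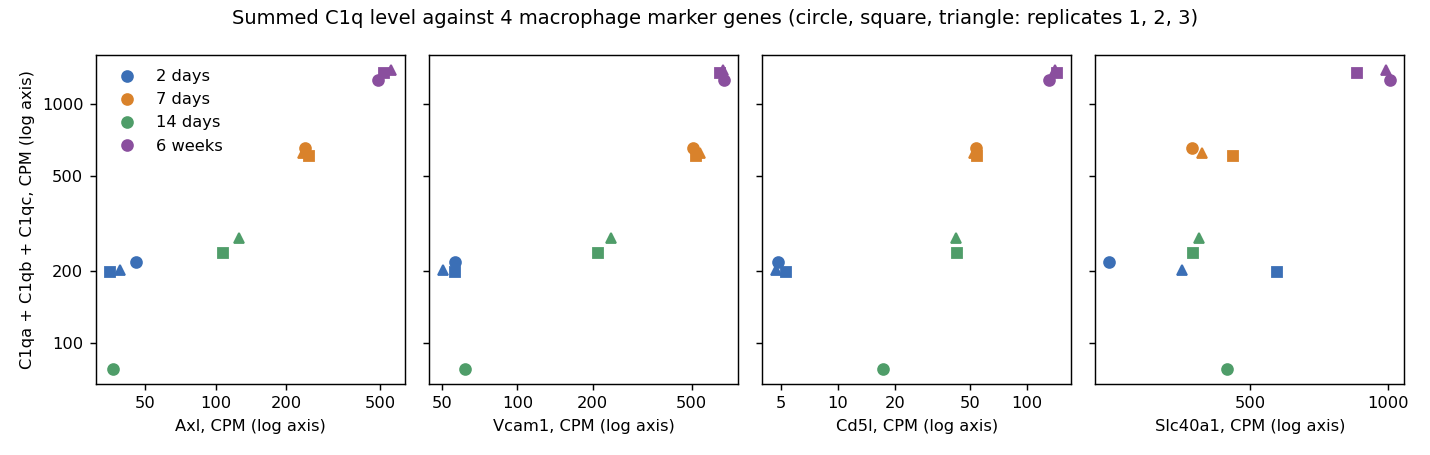
Summed CPM of C1qa, C1qb and C1qc (vertical log axis) against the CPM of Axl, Vcam1, Cd5l and Slc40a1 (horizontal log axes, 1 panel each) in the 12 libraries, coloured by age, with a shape per replicate. The 6w libraries lie at the top right (C1q sum 1261 to 1399 CPM), and 14d replicate 1 lies lowest for C1q, at 78.0 CPM.

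C4b and C2 form the C3 convertase of the classical pathway, and Cfb takes the place of C2 in the alternative pathway. C4b (chromosome 17, 34728380 to 34743882, minus strand) stood at 2.17, 2.90 and 2.41 CPM at 2d, 6.32, 8.81 and 3.02 CPM at 7d, 13.8, 1.44 and 3.35 CPM at 14d and 17.1, 38.2 and 31.5 CPM at 6w. The 6w libraries were above all younger ones, but those of 7d and 14d overlapped, and 14d replicate 1 was several times higher than its fellows. The log2 difference at 6w was 3.54 against 2d (SE 0.68, adjusted p = 0.00144), 2.26 against 7d (SE 0.64, adjusted p = 0.0104) and 2.23 against 14d (SE 0.64, adjusted p = 0.0292). The last was 3.59 without 14d replicate 1, and its adjusted p was 0.0658, 0.102, 0.0856 and 0.0759 without 14d replicate 2, 14d replicate 3, 6w replicate 2 and 6w replicate 3. Neither 7d nor 14d was called against 2d, at log2 differences of 1.28 and 1.31 (adjusted p = 0.126 and 0.169). Without 14d replicate 1 the difference at 7d was 1.29 and called (adjusted p = 0.0251), and without 14d replicate 2 that at 14d was 1.81 and called (adjusted p = 0.0433). At 14d against 7d it was 0.03 (adjusted p = 0.973), but -1.34 without 14d replicate 1 (adjusted p = 0.0476).

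C4b shares 48.27% of its 31-base words with C4a, its close copy, so the division of reads between the pair is uncertain. C4a stood at 1.21 ± 0.361 CPM at 2d, 0.357 ± 0.104 CPM at 7d, 5.31 ± 2.60 CPM at 14d and 0.616 ± 0.0632 CPM at 6w. It was highest at 14d, by 3.89 on the log2 scale against 7d (adjusted p = 2.54e-05), and lower at 6w than at 14d, by -3.10 (adjusted p = 0.00032). In 14d replicate 1, where C4b was high, C4a was the lowest of that age, at 2.77 CPM against 7.97 and 5.18 CPM. The sum of both genes was 17.7, 38.9 and 32.1 CPM at 6w and 16.6, 9.42 and 8.52 CPM at 14d, so the ages remained apart but 6w replicate 1 and 14d replicate 1 came close.

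C3 had an order of ages unlike that of the other 7, with its highest level at 7d. C3 (chromosome 17, 57203970 to 57228136, minus strand), the protein on which all activation paths converge, stood at 844, 856 and 811 CPM at 2d, 2343, 2718 and 2322 CPM at 7d, 1541, 1438 and 1528 CPM at 14d and 1174, 1698 and 1427 CPM at 6w. The 2d libraries were below and the 7d libraries above all others, while those of 14d and 6w overlapped. C3 was higher at 7d than at 2d by 1.56 (SE 0.15, adjusted p = 7.59e-06), lower at 14d than at 7d by -0.71 (SE 0.15, adjusted p = 0.00195), and lower at 6w than at 7d by -0.78 (SE 0.15, adjusted p = 0.000876). Its difference at 6w against 14d was -0.07 (SE 0.15, adjusted p = 0.788). It remained above 2d at both 14d (0.84, adjusted p = 0.00123) and 6w (0.78, adjusted p = 0.00123). The genes most like C3 were Kpna2 (r 0.972), a nuclear import receptor, Fam126a (0.969) and Depdc1b (0.969), none of which was among the 3 closest to a C1q chain.

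The bases upstream of C3 are printed because they held letters like those of sites read by the C/EBP factors of granulocytes and liver. The window is chr17:57228137-57228386 (GRCm38.p6, RefSeq, minus strand, 5′ to 3′), and capitals mark each match to TTNNGNAA on either strand.
C3: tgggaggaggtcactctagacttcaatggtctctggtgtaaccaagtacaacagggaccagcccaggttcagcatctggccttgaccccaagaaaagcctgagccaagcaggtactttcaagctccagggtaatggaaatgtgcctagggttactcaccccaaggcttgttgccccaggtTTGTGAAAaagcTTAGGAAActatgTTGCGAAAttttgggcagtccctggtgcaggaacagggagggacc
This window held 3 matches close together, and 36.8% of RefSeq promoters held at least 1 in the same length. It also held 1 MAF half-site, as the C1qb window did, left here in lower case. The share of promoters with 3 matches was not counted, and matches of letters say nothing of binding.

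Cfb, factor B, (chromosome 17, 34856374 to 34862518, minus strand) was a low transcript, at 6.95, 5.37 and 5.12 CPM at 2d, 4.83, 4.95 and 3.52 CPM at 7d, 5.4, 8.0 and 6.88 CPM at 14d and 11.3, 16.0 and 15.0 CPM at 6w. All 6w libraries lay above the rest, and the 7d libraries lay below those of 2d and 14d, which overlapped. The log2 difference at 6w was 1.28 against 2d (SE 0.21, adjusted p = 0.000415), 1.67 against 7d (SE 0.21, adjusted p = 4.94e-05) and 1.06 against 14d (SE 0.20, adjusted p = 0.00381). At 7d against 2d it was -0.39 and not called (adjusted p = 0.138), and at 14d against 7d it was 0.61 (adjusted p = 0.0301). That last call was lost without 7d replicate 1 (adjusted p = 0.0622), 7d replicate 3 (0.16), 14d replicate 2 (0.147) or 14d replicate 3 (0.0695). Cfb overlaps the predicted gene Gm20547 and shares 75.54% of its 31-base words with it. Gm20547 held 0 to 1.03 CPM, and the sum of both averaged 6.00 CPM at 2d, 4.78 CPM at 7d, 6.82 CPM at 14d and 14.1 CPM at 6w, which kept the order. C4b and Cfb lie 112491 bases apart on chromosome 17. Most like Cfb were Tmem229b (r 0.971), Ncr1 (0.954), a receptor of NK cells, and Slc29a3 (0.942), and most like C4b were Uba1 (0.953), Prg4 (0.931) and Eno1 (0.906).

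Cfp, or properdin, stabilises the alternative pathway convertase and is the member best known from neutrophils themselves. Cfp (chromosome X, 20925454 to 20931555, minus strand) stood at 300.1, 444 and 328 CPM at 2d, 348, 359 and 317.5 CPM at 7d, 305, 253 and 260.3 CPM at 14d and 588, 519 and 547 CPM at 6w. All 6w libraries lay above the younger ones. The 2d libraries overlapped those of 7d and 14d, and the 14d libraries lay below those of 7d. The log2 difference at 6w was 0.62 against 2d (SE 0.15, adjusted p = 0.00547), 0.69 against 7d (SE 0.15, adjusted p = 0.0022) and 1.01 against 14d (SE 0.15, adjusted p = 0.000807). Among the younger ages the log2 differences were -0.07 at 7d against 2d, -0.32 at 14d against 7d and -0.39 at 14d against 2d (adjusted p = 0.741, 0.0938 and 0.0761). The difference of -0.32 was called without 2d replicate 1 (adjusted p = 0.0345) or 2d replicate 2 (0.0117), and that of -0.39 without 2d replicate 1 (0.0284). Cfp varied least of the 8, its highest age mean being 2.02 times its lowest. The genes most like it were Ctsd (r 0.979), a lysosomal protease, Ndfip1 (0.973) and Phf23 (0.962).

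C6 changed most. C6 (chromosome 15, 4727175 to 4814967, plus strand) binds C5b and begins the membrane attack complex. It had 9, 8 and 3 counts in the 2d libraries, or 0.230, 0.263 and 0.0822 CPM, then 2.60, 5.13 and 3.22 CPM at 7d, 2.66, 9.31 and 10.6 CPM at 14d and 70.2, 72.8 and 70.5 CPM at 6w. No 6w library came near any younger one, and the 2d libraries lay below all others. The 7d and 14d libraries overlapped, with 14d replicate 1 again the lowest of its age. Summed over an age, the counts were 20 at 2d, 428 at 7d, 824 at 14d and 7845 at 6w.

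At 6w C6 was higher than at 2d by 8.53 on the log2 scale (SE 0.58, adjusted p = 5.48e-07), a fitted 370-fold difference that rests on the 20 counts of 2d. Against 7d the difference was 4.29 (SE 0.43, adjusted p = 1.02e-05), or 19.5-fold, and against 14d 3.24 (SE 0.41, adjusted p = 0.000285), or 9.46-fold. It was already higher at 7d than at 2d, by 4.24 (SE 0.59, adjusted p = 0.000122), and at 14d than at 2d, by 5.29 (SE 0.58, adjusted p = 4.28e-05). The step at 14d against 7d, 1.04 (adjusted p = 0.0484), was at the threshold and was lost in 14 of 20 alternatives, among them those without 2d replicate 1 or 3, 7d replicate 1 or 3, 14d replicate 2 or 3 or any 6w replicate.

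C6 changed more with age than C1q did. The ratio of C6 to C1qa ran from 0.00118 to 0.00411 at 2d, 0.0112 to 0.0252 at 7d, 0.101 to 0.121 at 14d and 0.138 to 0.154 at 6w, so the age means of the ratio differed 51.3-fold and no 2 ages overlapped. Within 14d the ratio was nearly the same in replicate 1 as in the others, where both genes were low in that library. Against the summed macrophage markers the age means of the C6 ratio differed 85.8-fold. Hepatocyte markers, the list of the main source of circulating C6, summed to 0.0265 to 0.251 CPM at 6w with 2 of 5 at 0. The genes most like C6 were Pcolce2 (r 0.996), a helper of procollagen processing, Kcnj16 (0.995), a potassium channel subunit, and Tmem65 (0.989).

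The sequence upstream of C6 is given because its change was the widest of the 8, at chr15:4726960-4727174 (GRCm38.p6, RefSeq, plus strand, 5′ to 3′), with matches to TTNNGNAA on either strand in capitals.
C6: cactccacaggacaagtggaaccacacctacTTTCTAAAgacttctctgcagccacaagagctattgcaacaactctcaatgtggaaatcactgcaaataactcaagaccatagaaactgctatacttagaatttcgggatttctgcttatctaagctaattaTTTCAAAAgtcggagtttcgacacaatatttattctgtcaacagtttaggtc
There were 2 matches, and 32.0% of promoters held at least 1 in 215 bases. Those 215 bases ended at each RefSeq start, while the C6 window ended at its GENCODE start, farther upstream. Here too a match of letters says nothing of binding. Neither the PU.1-type core nor the MAF half-site was found in these letters. Cfp, whose RefSeq window is 250 bases, held none of the motifs searched, including TTCNNNGAA, the STAT-type letters, which none of the 5 windows held. C1qa, C4b and Cfb had no entry in the promoter table used.

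**Figure D3:**
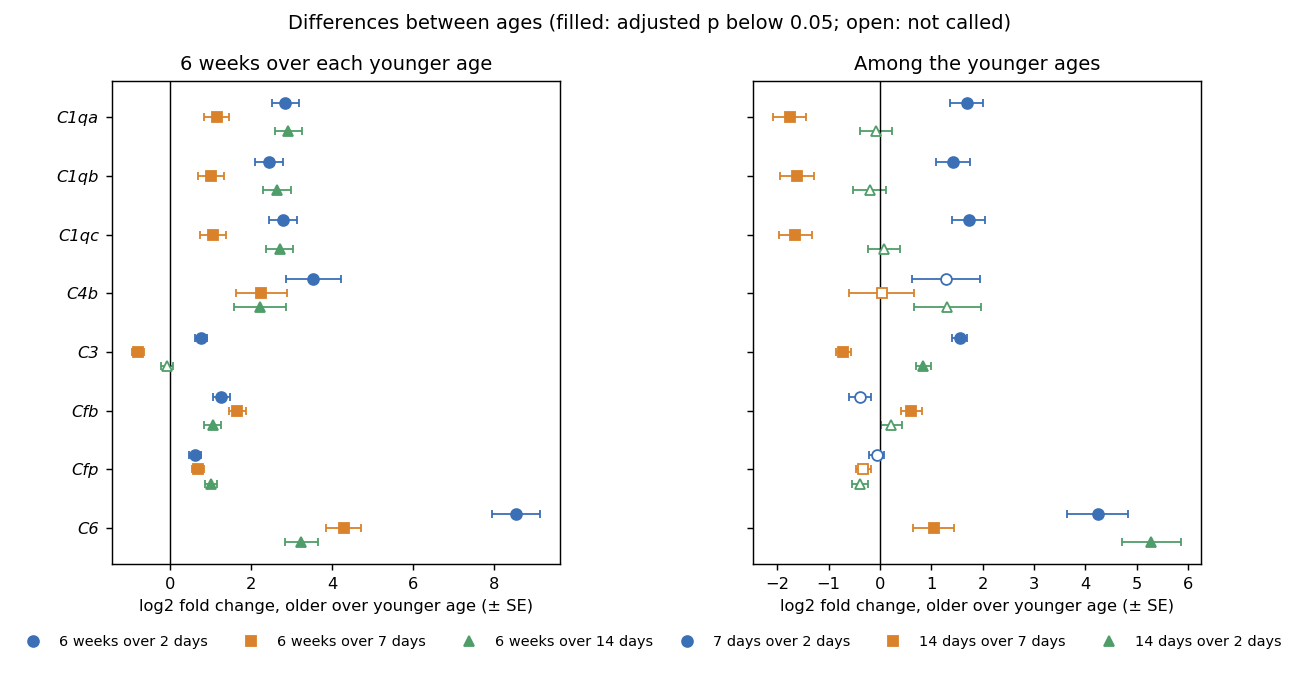
Log2 fold change of each component gene at the older age over the younger one, with SE bars, for 6w over each younger age (left) and among the younger ages (right). Filled points have an adjusted p below 0.05 and open points do not. At 6w against 2d all 8 lie above 0, from 0.62 for Cfp to 8.53 for C6, and C3 is the gene below 0 at 6w against 7d (-0.78).

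Per kilobase of exon, which allows levels of different genes to be compared, C3 led at 7d (478.5 CPM per kb) and C1qa at 6w (471 CPM per kb). At 6w C1qa was followed by C1qb at 379, Cfp at 317.5, C3 at 279 and C1qc at 225 CPM per kb. C6 at 20.0, C4b at 5.08 and Cfb at 5.0 CPM per kb were far lower. At 2d the leaders were Cfp at 206 and C3 at 163 CPM per kb, with C1qb at 69.4, C1qa at 65.6 and C1qc at 32.5. Cfb at 2.06, C4b at 0.438 and C6 at 0.0539 CPM per kb closed that list. C1qc stood below its partner chains on this scale at every age, its exons spanning 1931 bases against 1040 for C1qa and 1088 for C1qb.

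**Figure D4:**
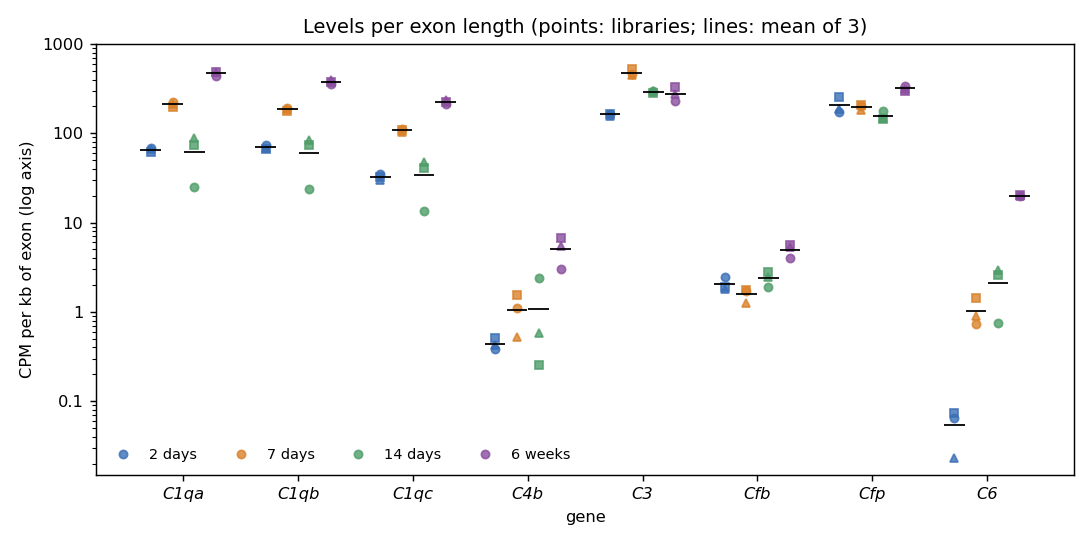
Level per kilobase of exon (CPM per kb, log axis) of the 8 component genes at each age from 2d to 6w, with points for libraries and lines for the means of 3. C3 and Cfp lead at 2d, C3 at 7d and 14d and C1qa at 6w, while C6 has the sixth place at 6w (20.0) and the lowest at 2d (0.0539).

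Other genes of the complement system were taken from a list of 43 initiators, proteases, terminal components, regulators and receptors. Of these, 26 could be tested and 17 had too few counts, including C1rb, Mbl1, Mbl2, Colec10, Masp1, C8a, C8b and C9, which had 0 counts in all 12 libraries. At 6w against 2d, 7 were higher and 6 lower of the 26, with a median log2 fold change of -0.38 against -0.04 for all genes and backgrounds of 19.7% higher and 20.7% lower. At 6w against 7d, 7 were higher and 10 lower, with backgrounds of 26.6% and 24.5%. At 6w against 14d 2 were higher and 5 lower, with backgrounds of 9.26% and 9.68%. Several of these counts rest on single libraries. Those lower at 6w against 2d were 10 without 2d replicate 2, 3 without 6w replicate 1 and 2 without 6w replicate 3. Those higher at 6w against 14d were 5 without 2d replicate 1, 6 without 2d replicate 2 and 4 without 14d replicate 3. The 26 genes were called in both directions in each of these comparisons.

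Among initiators, 2 ficolins, lectins that bind sugars and start the lectin pathway, followed different courses. Fcna, known from macrophages, averaged 33.4 ± 3.23 CPM at 2d, 167 ± 9.26 CPM at 7d, 65.9 ± 34.2 CPM at 14d and 261 ± 17.6 CPM at 6w, and was higher at 6w than at 2d (2.97, adjusted p = 2.57e-05) and at 14d (1.99, adjusted p = 0.00132). Its ratio to C1qa ran from 0.427 to 1.04 and differed between ages. The ratio averaged 0.4905 ± 0.0622 at 2d, 0.762 ± 0.0198 at 7d, 1.02 ± 0.02355 at 14d and 0.533 ± 0.0122 at 6w (SD, n = 3 each). Fcna too was low in 14d replicate 1, at 26.9 CPM against 80.1 and 90.8 CPM. Fcnb, known from neutrophils and their precursors, averaged 46.5 ± 18.8 CPM at 2d, 167 ± 11.2 CPM at 7d, 218 ± 13.0 CPM at 14d and 94.2 ± 21.2 CPM at 6w. It was higher at 6w than at 2d (1.02, adjusted p = 0.00714) but lower than at 14d (-1.21, adjusted p = 0.0063) and 7d (-0.83, adjusted p = 0.0159, or 0.0693 and 0.051 without 6w replicate 1 and 6w replicate 3).

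C2, the protease that joins C4b, averaged 5.72 ± 1.91 CPM at 2d, 13.4 ± 0.128 CPM at 7d, 4.42 ± 2.49 CPM at 14d and 19.1 ± 2.07 CPM at 6w. It was higher at 6w than at 2d (1.74, adjusted p = 0.00299) and at 14d (2.11, adjusted p = 0.00263). At 6w against 7d its difference was 0.52 and not called (adjusted p = 0.253). Of the terminal list, C7 had 1 count over 12 libraries, C8g averaged under 1 CPM at every age, and Hc, which encodes C5, averaged at most 4.84 CPM at any age.

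Among regulators, Cd55, which speeds the decay of convertases on the cell surface, averaged 52.6 ± 7.82 CPM at 6w and 128 ± 12.6 CPM at 7d, a difference of -1.28 (adjusted p = 2.23e-05). Cr1l, the rodent regulator known as Crry, went the other way, with 90.4 ± 12.5 CPM at 6w and 53.0 ± 6.51 CPM at 7d, a difference of 0.77 (adjusted p = 0.00541).

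Receptors differed most in their level. Itgam and Itgb2, the chains of the complement receptor CR3 that binds cleaved C3, stood above 1000 CPM in all libraries: Itgam averaged 2621 ± 417, 1770.0 ± 237, 2305 ± 407 and 2295 ± 165 CPM from 2d to 6w, with no call at 6w. Itgb2 averaged 1522 ± 352, 1411 ± 156, 1865 ± 267 and 2223 ± 64.8 CPM and was higher at 6w than at 7d (0.66, adjusted p = 0.00778). Itgb2 was also called higher at 6w than at 2d, by 0.46 to 0.745 without single libraries. That call was lost without 2d replicate 1 or 3, without any 6w replicate and in a fit of the 2 ages alone. Itgax, the partner chain of CR4, averaged 52.9 ± 29.7, 10.2 ± 0.275, 184 ± 5.18 and 167 ± 15.1 CPM, and was higher at 6w than at 2d by 1.66 (adjusted p = 0.00051) and than at 7d by 4.03 (adjusted p = 1.57e-06).

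C5ar1, the main receptor for the chemoattractant C5a, averaged 668 ± 187.5, 369.5 ± 61.3, 579 ± 73.6 and 729 ± 76.4 CPM from 2d to 6w and was higher at 6w than at 7d by 0.98 (adjusted p = 0.00141). C5ar2, the second C5a receptor, averaged 61.3 ± 38.1, 35.8 ± 3.61, 52.4 ± 5.49 and 104 ± 18.8 CPM and was higher at 6w than at 7d by 1.54 (adjusted p = 0.00197). C3ar1, the receptor for C3a, was low and had its highest level at 2d: 5.47 ± 0.890 CPM at 2d, 1.71 ± 0.152 CPM at 7d, 1.13 ± 0.0921 CPM at 14d and 0.860 ± 0.101 CPM at 6w. Its difference at 6w was -2.66 against 2d (adjusted p = 1.63e-06) and -0.99 against 7d (adjusted p = 0.00199). A list of 8 mast cell, eosinophil and basophil markers was also highest at 2d, at 2058 to 3987 CPM, and summed to 211 to 254 CPM at 7d, 95.2 to 135 CPM at 14d and 119 to 134 CPM at 6w. Its part in the C3ar1 level was not tested.

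Cr2, a receptor best known from B cells, averaged 1.54 ± 0.571, 19.8 ± 0.907, 17.2 ± 7.50 and 31.4 ± 2.30 CPM and was higher at 6w than at 2d by 4.32 (adjusted p = 1.97e-06). The B cell and plasma cell list summed to 383 to 439 CPM at 6w and 187 to 248 CPM at 2d, and its part in the Cr2 level was not tested. Cd93, once named a C1q receptor, was lower at 6w than at 2d (-1.07, adjusted p = 0.00523), and C1qbp, a protein that binds C1q heads, was lower at 6w than at 7d (-1.10, adjusted p = 0.008).

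**Figure D5:**
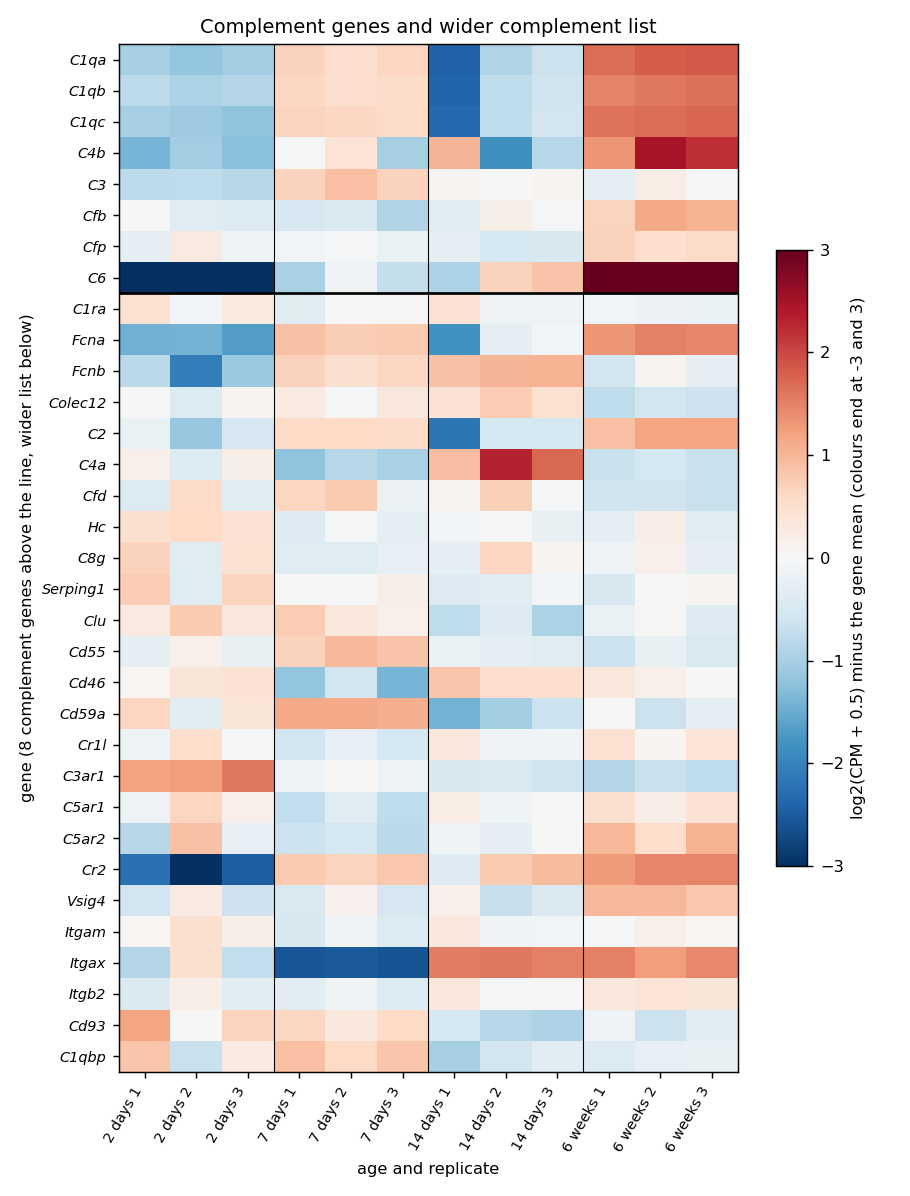
Heat map of the 8 component genes (above the line) and 25 of the 26 tested genes of the wider complement list (below it) in the 12 libraries, ordered by age and replicate; colour is log2(CPM + 0.5) minus the mean of the gene, red above and blue below, ending at -3 and 3. C6 is at the dark end of each colour at 2d and 6w, the C1q genes, Fcna and C2 share a deep blue in 14d replicate 1, and C3ar1 is red at 2d, where C1q is blue.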

How the data were processed

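The submitters deposited whole-number counts per gene for 12 polyadenylated RNA libraries of Ly6G+ spleen cells. Trizol extraction and random-hexamer priming of cDNA are named in the labels' protocols. Whether strand was kept is not given in the sources used here. The submitters' processing notes name RSEM 1.2.3, DESeq2 and the build mm10, without the role of each. The deposited counts may be RSEM estimates rounded to whole numbers, so reads shared by similar genes (C4b and C4a, Cfb and Gm20547) may have been divided between them. Symbols and positions came from GENCODE M21 for 37570 of 38887 identifiers, and upstream sequences from RefSeq.

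The age label set the 4 groups. Scaling used the trimmed mean of M-values, and 15494 genes passed edgeR's expression filter (minimum count 10). Each pair of ages was tested as the older over the younger with edgeR's quasi-likelihood test (edgeR 4.0.16, R 4.3.3) in 1 model over all 12 libraries, with age as the only term and Benjamini-Hochberg adjustment over all genes tested (threshold 0.05). With at least 34495767 counts per library, counting error is small except for rare transcripts such as C6 at 2d. Alternatives used DESeq2 1.42.0, limma 3.58.1 (voom), other scalings and filters, a replicate block and left-out libraries. Likeness between genes is Pearson's r of log2(CPM + 0.5), and levels per length use the union of annotated exons.

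The component genes and all lists were chosen with earlier results of these data known. Named beyond the 8 were wider-list genes called at 6w against a younger age with a mean of at least 5 CPM at their highest age, plus C3ar1, C5ar1, Itgam and Itgb2. Also named were the 2 highest macrophage markers with Cd5l and Adgre1, and the 3 genes most like each member. A wider-list gene that this rule names is not reported here. Axl was added after its values were seen, as were Hc, C7, C8g, the genes at 0 and the macrophage markers named for their ratio to C1q.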

Additional observations from a re-analysis of the deposited data

How the results depend on the processing

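Of 48 log2 differences (8 component genes, 6 pairs of ages), 33 kept their direction and their side of the threshold under all 20 alternatives, and all 8 genes were higher at 6w than at 2d in each of them. The rest changed as follows, and the cause was not tested. With library totals alone, under which the median of all genes was -0.16 at 6w against 7d and 0.14 at 7d against 2d (0.01 and -0.01 as reported), the 6w against 7d differences of C1qb (0.848) and C1qc (0.889) and the 14d against 7d differences of C6 (0.995) and Cfb (0.53) lost their calls. Under it Cfp was called at 14d against 2d (-0.317) and against 7d (-0.424), and C1qa at 14d against 2d (0.006), C4b at 14d against 7d (-0.127) and Cfp at 7d against 2d (0.107) changed sign uncalled. The C6 step at 14d against 7d also lost its call with DESeq2 size factors in edgeR (1.027), limma-voom (0.891) and a fit of the 2 ages alone (1.031). DESeq2 called Cfp at 14d against 2d (-0.403) and 7d (-0.343). In limma-voom C1qc at 14d against 2d (-0.117) and C4b at 14d against 7d (-0.46) changed sign. Fits of 2 ages alone lost C4b at 6w against 14d (2.224) and called C4b at 7d against 2d (1.304) and Cfp at 14d against 7d (-0.342). Shared replicate numbers were not taken as pairs. Deviations of same-numbered libraries from their age means correlated over 0.1 in 3 of 18 pairs (range -0.364 to 0.325). Those between 2d and 7d were 0.291, 0.325 and 0.097 for replicates 1, 2 and 3. Differently numbered libraries were not compared, so these values cannot settle whether libraries are paired. With the replicate block, C1qc at 14d against 2d (-0.002) and C4b at 14d against 7d (-0.04) changed sign and C6 at 14d against 7d (0.982) lost its call. An alternative chosen after seeing the data left out 2d replicate 2 and 14d replicate 1 together. Under it C1qa (0.263), C1qb (0.157) and Cfp (-0.285) at 14d against 2d differed from the values reported, the first pair in sign and Cfp in being called. C1qc at 14d against 2d (0.459), C4b at 7d against 2d (1.419), C4b at 14d against 7d (-1.348) and Cfp at 14d against 7d (-0.429) were then called, and Cfp at 7d against 2d (0.143) changed sign. Leaving out single libraries, the 14d against 2d differences ran from -0.4 to 0.302 for C1qa, -0.498 to 0.189 for C1qb, -0.241 to 0.458 for C1qc, -0.051 to 1.807 for C4b and -0.475 to -0.198 for Cfp. Those at 14d against 7d ran from -1.336 to 0.473 for C4b, 0.718 to 1.444 for C6, 0.434 to 0.745 for Cfb and -0.413 to -0.288 for Cfp. Those at 6w against 7d ran from 0.983 to 1.063 for C1qb and 1.002 to 1.095 for C1qc. Those at 6w against 14d ran from -0.207 to 0.058 for C3 and 1.755 to 3.594 for C4b, and those at 7d against 2d from 0.915 to 1.659 for C4b and -0.111 to 0.144 for Cfp. Over all genes, 3882 were called at 14d against 2d, 1952 in a fit of these 2 ages, 6249 without both libraries and 2678 to 5833 without single ones, the most without 2d replicate 2. At 6w against 14d 2934 were called, 4869 without both libraries and 1677 to 4685 without single ones, 1709 without 6w replicate 1, the fewest without 6w replicate 3 and the most without 2d replicate 2. Of the wider list, 4 genes were higher at 14d against 7d, 7 with library totals alone and without both libraries, 8 in a fit of the 2 ages and 3 to 9 without single libraries, the most without 2d replicate 2. At 6w against 14d 2 were higher, 4 with library totals alone or 2 ages, 5 without a filter or with limma-voom, 6 with DESeq2, 9 without both libraries and 2 to 6 without single ones. At 6w against 7d 7 were higher, 11 with 2 ages and 12 without both libraries. At 6w against 2d 6 were lower, 2 with 2 ages, 11 without both libraries and 2 to 10 without single ones. Depth limits C6 at 2d, where 20 counts stand behind the fold.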
